A study of Drosophila melanogaster with 48 samples.

Results

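The 5 Drosophila melanogaster genes bru3, jing, olf413, SKIP and heph hold more UAS-HA-Zld-only peaks than any other of the 13922 protein-coding genes on the 6 arms analysed. They were chosen by that count, measured in these same lists, so the counts below are a description and carry no test. The 5 genes span 843.7 kb in all. Peaks were assigned to a gene when the summit lay in its annotated span or within 2 kb of either end.

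The series profiled transcription factor binding by CUT&RUN, in which a nuclease tethered to an antibody releases the DNA around the bound protein. Of its 48 samples, 6 came from larval brains and 42 from S2 cells, and the values here come from the 4 brain samples with an antibody against Zelda (Zld). These formed 2 conditions of 2 replicates, with 1 deposited peak list per condition, so no spread between replicates could be given and no test between conditions was possible. Larvae grew at 18 °C before a shift of 24 h to 33 °C, and each reaction used 50 brains. The condition called brat is named in its titles for brat, and the condition called UAS-HA-Zld for the tagged transgene. All 4 samples carry the same genotype label, which gives brat11 over a deficiency (DF), the temperature-sensitive repressor Tub-Gal80ts, the transgene UAS-HA-Zld and the driver WorGal4. The transgene and driver are thus listed for both conditions, which were told apart by title alone. worniu-Gal4 is active in neuroblasts, whereas whole brains entered the reaction. Type II neuroblast is the labelled cell type, and peak lists give no expression level with which to check it. The 2 IgG control samples of the brain were not analysed here.

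Zld is a zinc-finger pioneer factor, a protein that binds its DNA motif in closed chromatin and makes it accessible, and it is best known for switching on the first genes of the fly embryo. In the larval brain, brat represses translation and its loss lets type II neuroblasts accumulate in place of their differentiating progeny. bru3 encodes an RNA-binding protein of the Bruno/CELF family, and heph the fly polypyrimidine tract-binding protein, a regulator of splicing. jing encodes a zinc-finger protein related to vertebrate AEBP2 and acts in border cells, trachea and the midline of the nervous system. olf413 encodes a predicted copper-dependent monooxygenase related to the octopamine-synthesising enzyme Tbh, and SKIP is named for an interaction with the Shal potassium channel.

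Across both lists, a peak was matched when it shared at least 1 bp with a peak of the other list. Of 9065 UAS-HA-Zld peaks, 2980 (32.9%) had no brat partner, and of 7644 brat peaks 1676 (21.9%) had no UAS-HA-Zld partner. The background floor, an estimate of genome-wide coverage, was 28.8 fragments in UAS-HA-Zld and 22.6 in brat, a ratio of 1.28. The list of UAS-HA-Zld was thus the deeper one by this estimate, and the part of depth in the one-list-only calls was not tested beyond the scaled alternative given in the closing section.

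The 5 genes held 166 UAS-HA-Zld peaks with 327 summits, of which 67 were matched and 99 (59.6%) were UAS-HA-Zld-only. The brat list had 73 peaks with 125 summits there, of which 68 were matched and 5 were brat-only. They held 3.32% of all UAS-HA-Zld-only peaks, 1.83% of all UAS-HA-Zld peaks and 0.955% of all brat peaks. At least 1 UAS-HA-Zld-only peak was assigned to 15.4% of protein-coding genes, and at least 1 brat-only peak to 14.9%.

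**Figure D1:**
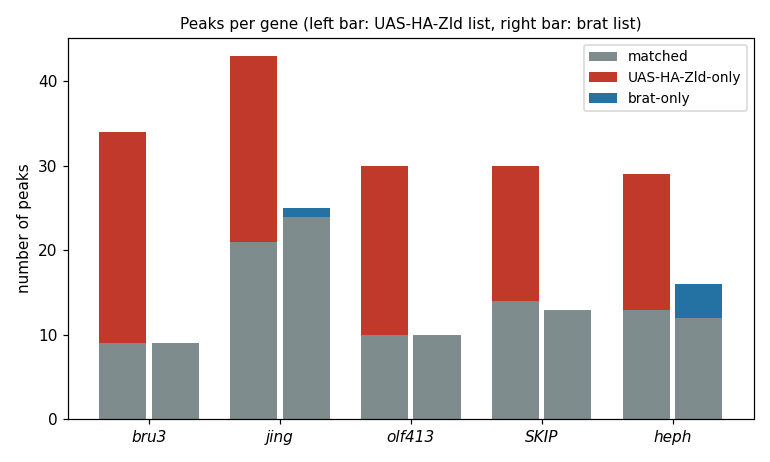
Number of peaks assigned to each gene, with the UAS-HA-Zld list in the left bar and the brat list in the right bar; grey is matched and colour is found in that list alone. The UAS-HA-Zld bars reach 29 to 43 peaks and the brat bars 9 to 25.

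Peaks carry running numbers, and numbers are missing from both lists, so other called peaks were not analysed here. Of the 99 UAS-HA-Zld-only peaks, 71 (71.7%) lay where the brat list lacks at least 1 number between its neighbouring peaks, against 51.8% of all UAS-HA-Zld-only peaks. All 5 brat-only peaks lay beside such a gap in the UAS-HA-Zld list. If every absent number were a peak that matched 1 of them, 67 UAS-HA-Zld-only peaks would be left: 20 at bru3, 19 at jing, 13 at olf413, 4 at SKIP and 11 at heph. A one-list-only call is therefore a statement about the peaks analysed, and the fewest would be left at SKIP.

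**Figure D2:**
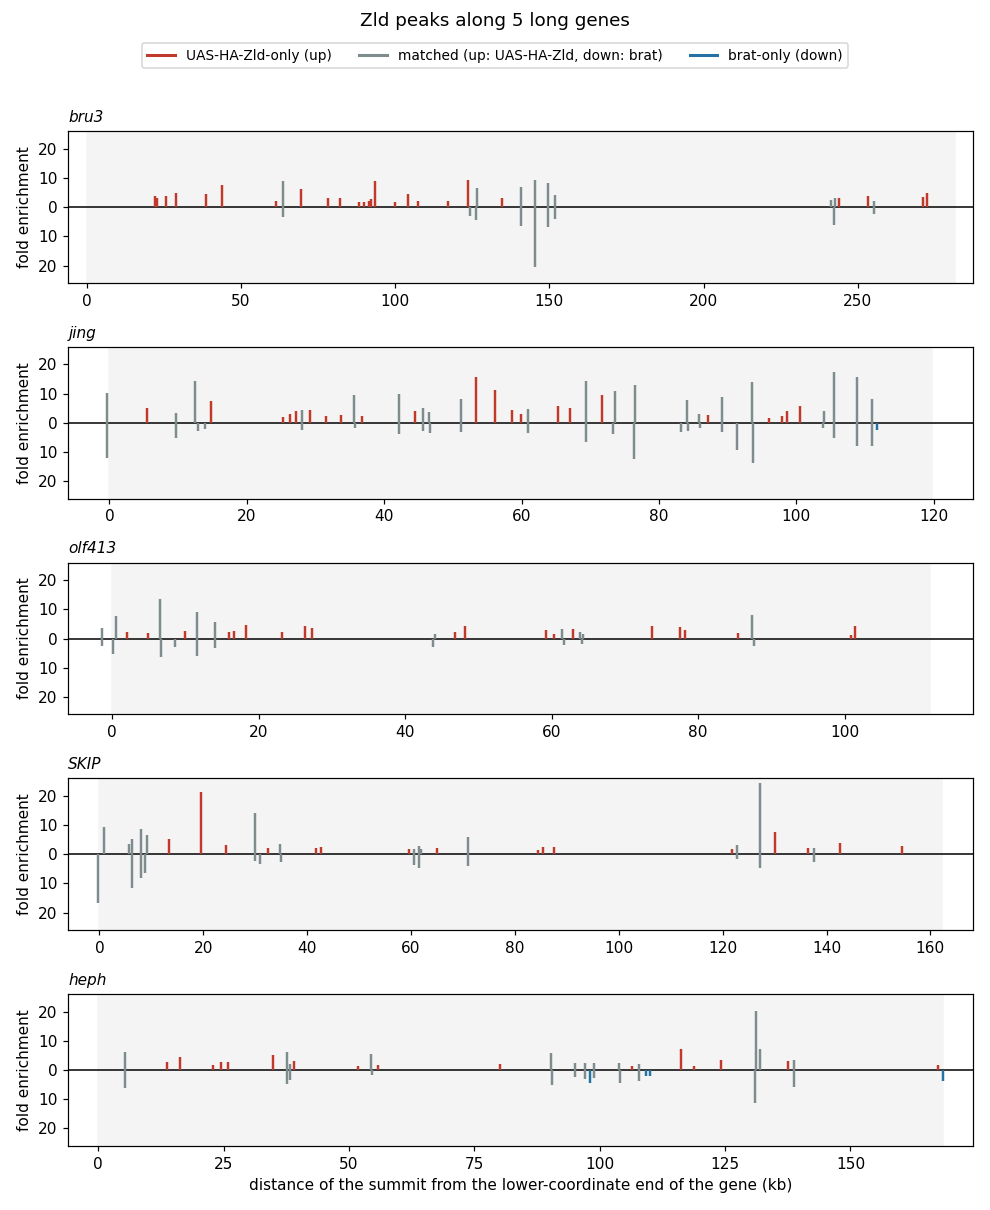
Summit position in kb from the lower-coordinate end of each gene (grey field: annotated span) against fold enrichment on a linear scale, UAS-HA-Zld upward and brat downward; red and blue mark peaks of one list and grey matched peaks. Among the peaks analysed, bru3 has an interval of 89.6 kb without a UAS-HA-Zld peak, where that list lacks at least 1 number.

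bru3 (3L:13521907-13803400, dm6, 281.5 kb) is the longest of the 5 and had 34 UAS-HA-Zld peaks, 25 of them UAS-HA-Zld-only, beside 9 brat peaks, all matched. Of the UAS-HA-Zld-only peaks 15 lay in the first of 3 equal parts from the lower-coordinate end, 6 in the middle and 4 in the last. All 21 in the first and middle parts lay beside absent brat numbers, and without such peaks the counts became 0, 0 and 4. That rule leaves out every peak beside a gap, however few numbers the gap lacks. Up to the next peaks on either side of the gene, the brat list lacks 5 numbers at bru3. With each taken as 1 match, 20 of the 25 would be left, and their order along the gene was not counted. A run of 13 consecutive UAS-HA-Zld peaks, each beside an absent brat number, had no brat partner among the peaks analysed. The median distance from a UAS-HA-Zld-only summit to the nearest brat summit in the list was 19.94 kb, a distance that absent brat peaks would shorten. The strongest, 13644345-13645668, had a fold enrichment of 9.47 and a pileup of 793 fragments, and its summit lay 872 bp from a brat summit. The next 2, 13614689-13615568 and 13565171-13566199, had folds of 8.93 and 7.51, and all 3 lay beside an absent brat number. The strongest matched peak, 13666757-13668133, ran the other way: its brat summit 23 bp away had a fold of 20.4 and a pileup of 1440, against 9.23 and 946 in UAS-HA-Zld. The other named matched peak, 13585282-13585777, had a UAS-HA-Zld pileup of 572 and a brat pileup of 108 at a summit 131 bp away. Between 151.8 and 241.3 kb from the lower end no UAS-HA-Zld peak analysed had its summit. The UAS-HA-Zld list lacks 10 numbers at bru3, at least 1 of them there, so the interval is empty only among the peaks analysed. The 1 brat summit counted in that interval belonged to a peak matched with the UAS-HA-Zld peak at its edge.

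jing (2R:6502006-6621792, 119.8 kb) had the densest binding, with 43 UAS-HA-Zld peaks that covered 37.7% of the gene and its flanks, and 25 brat peaks that covered 16.3%. Of the UAS-HA-Zld peaks 22 were UAS-HA-Zld-only, or 18.4 per 100 kb. They were interleaved with the matched peaks: the longest run was 4, and the median distance to a brat summit was 2.21 kb. The strongest, 6554397-6556330, had a fold of 15.9 and a pileup of 1751 and ranked 134 in the whole UAS-HA-Zld list. The other named peaks were 6572027-6574363, with a fold of 9.44, and 6557081-6558875, with a fold of 11.3. The first of these 3 and the last lay beside an absent brat number, and 6572027-6574363 did not. At the strongest matched peak, 6576715-6579597, the pileup was 2046 in UAS-HA-Zld and 1343 in brat. At 6592141-6597324, a peak with 13 summits, it was 1893 and 1330, at summits 112 bp apart. The 1 brat-only peak, 6613642-6613999, was weak, with a fold of 2.31 and a pileup of 81.

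olf413 (3L:22136090-22247702, 111.6 kb) had 30 UAS-HA-Zld peaks, 20 of them UAS-HA-Zld-only (17.9 per 100 kb), and 10 brat peaks, all matched. The folds of its UAS-HA-Zld-only peaks ran from 1.38 to 4.61. Their median of 2.81 was above those at SKIP (2.38) and heph (2.72). As at heph, none was in the strongest 20% of the list. All 9 in the first of 3 equal parts from the lower-coordinate end lay where no brat number was absent. The 6 in the middle part and the 5 in the last all lay beside an absent brat number. The strongest, 22153814-22155236, had a pileup of 401 and was among the 9. The next were 22209540-22210022 and 22184157-22184809, with folds of 4.33 and 4.34, and both lay beside an absent brat number. The 2 highest peaks of the gene were matched and close to its lower end. At 22141653-22145308 the pileup was 1656 in UAS-HA-Zld and 557 in brat, at summits 114 bp apart, and at 22147176-22148237 it was 1059 and 472.

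SKIP (3R:22133830-22296126, 162.3 kb) had 30 UAS-HA-Zld peaks, 16 of them UAS-HA-Zld-only, and 13 brat peaks, all matched. It had the UAS-HA-Zld-only peak with the highest fold of the 99, 22151603-22154099, with a fold of 21.5, a pileup of 1709 and rank 88 in the list. The other 15 were much lower: the next, 22263647-22264077 and 22147166-22147497, had folds of 7.47 and 5.38, and the median over all 16 was 2.38. All 3 named peaks lay beside an absent brat number. Its matched peaks included large differences in pileup. At 22260070-22262227 the pileup was 2353 in UAS-HA-Zld and 332 in brat, and at 22162070-22165400 it was 1194 and 142. Of its 13 pairs with summits within 100 bp, 3 went the other way, with ratios of UAS-HA-Zld to brat down to 0.68. A stretch of 34.3 kb, from 87.5 to 121.8 kb, held no UAS-HA-Zld peak and no brat peak among those analysed. The brat list lacks at least 1 number between its peaks on either side of this stretch. Up to the next peaks on either side of SKIP, the brat list lacks 15 numbers and the UAS-HA-Zld list 7. With each absent brat number taken as 1 match, 12 of the 16 UAS-HA-Zld-only peaks could be matched.

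heph (3R:31846987-32015520, 168.5 kb) had 29 UAS-HA-Zld peaks, 16 of them UAS-HA-Zld-only, and 16 brat peaks. Of its 16 brat peaks 4 were brat-only, beside 21.9% of all brat peaks, and they were 4 of the 5 brat-only peaks at the 5 genes. The 4 were 31944634-31945296, 31955985-31956290, 31956942-31957148 and 32015251-32015520, with pileups of 109, 56, 45 and 122. The strongest UAS-HA-Zld-only peak, 31962562-31963269, had a fold of 7.08 and a pileup of 399. The next, 31863073-31863538 and 31881564-31881988, had folds of 4.61 and 5.28. All 3 lay beside an absent brat number. The strongest matched peak, 31977751-31978384, had a pileup of 1616 in UAS-HA-Zld and 668 in brat, and its summit lay 71 bp from the end of an annotated gene. Its neighbour, 31978623-31979478, overlapped the same brat peak, with pileups of 530 and 194.

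Few peaks at these genes lay at gene ends. Within 500 bp of an end of any annotated gene were 5 of the 99 UAS-HA-Zld-only peaks (5.05%), against 22.2% of all UAS-HA-Zld-only peaks. The matched peaks showed the same, with 4 of 67 (5.97%) against 42.1% of all matched UAS-HA-Zld peaks. Long genes have few ends per kb, and the gene table gives no strand, exons or introns, so promoters and intronic positions could not be assigned.

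The UAS-HA-Zld-only peaks at the 5 genes had a median fold of 3.02, against 2.94 over all UAS-HA-Zld-only peaks, and a median pileup of 166 against 165. The matched UAS-HA-Zld peaks had a median fold of 5.75, against 4.32 over all matched ones. With the whole UAS-HA-Zld list divided into 5 equal bins by −log10 q, from weakest to strongest, the unmatched share at the 5 genes was 77.3%, 75.0%, 71.0%, 50.0% and 16.1%. Over all peaks the shares were 55.7%, 41.9%, 32.6%, 23.5% and 10.7%. The unmatched share was above that of the whole list in each bin, and the genes had been chosen by their unmatched peaks.

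Pileups at matched peaks could be set side by side where both summits lay within 100 bp, which held for 55 of the 67. This rule replaced an earlier one after its ratios had been seen. The ratio of UAS-HA-Zld to brat had a median of 1.87 at the 5 genes, against 1.36 over all 5315 such pairs. A ratio of at least 2 was found for 27 of 55 (49.1%), against 23.8% of all pairs. The genes differed: the median was 2.79 at jing over 17 pairs, 2.36 at olf413 over 6, 1.69 at SKIP over 13, 1.62 at bru3 over 8 and 1.39 at heph over 11. At heph and bru3 the share of pairs with a ratio of at least 2 was 27.3% and 25.0%, near that of all pairs. The ratios come from the contrast that chose the genes and are not scaled for depth. Pairing each peak instead with the brat peak sharing the most bases gave 30 of 67 (44.8%), against 22.9% of all 6085 matched peaks.

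**Figure D3:**
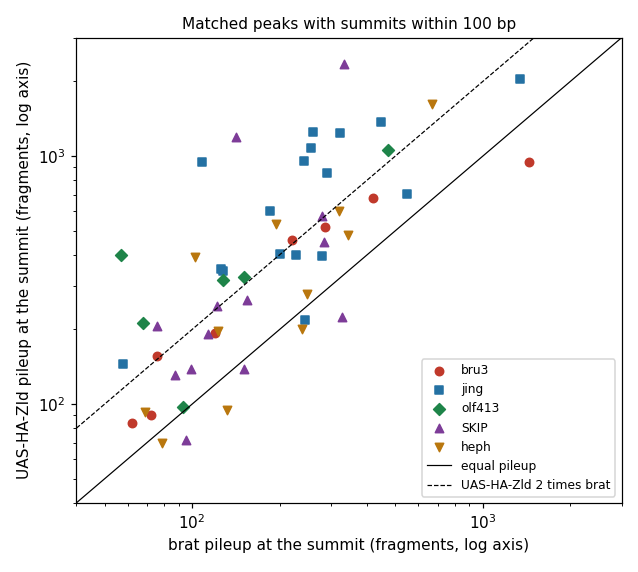
Pileup in fragments at the summit in brat (x) and UAS-HA-Zld (y), both on log axes, for the 55 matched peaks whose summits lay within 100 bp, with lines at equal pileup and at a ratio of 2. Of the pairs 47 lie above equality, and most jing points lie above the dashed line.

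The other 78 protein-coding genes of at least 100 kb had a median of 1 UAS-HA-Zld-only peak, with 29 at 0 and a highest count of 15. They had a median of 4 UAS-HA-Zld peaks of either kind, and 9 had no peak in either list. Summed over these genes, 201 of 553 UAS-HA-Zld peaks (36.3%) were UAS-HA-Zld-only. The share was 59.6% at the 5 genes, which were chosen by their UAS-HA-Zld-only peaks. Just inside the choice were SKIP and heph, with 16 each, and just outside it hth with 15, then siz, Cph, CG32816 and kirre with 11 each. siz is only 40.9 kb long and had 26.9 UAS-HA-Zld-only peaks per 100 kb, more than any of the 5. hth and Cph had 11.4 and 10.6 per 100 kb, above SKIP (9.86), heph (9.49) and bru3 (8.88). By matched, UAS-HA-Zld-only and brat-only peaks per 100 kb, the long genes most like bru3 were CG32816 and Ten-m, at Euclidean distances of 1.88 and 3.70 peaks per 100 kb. hth and Cph were most like jing (8.06 and 8.15) and olf413 (8.05 and 9.75). Antp came first for SKIP (5.00) and heph (4.36).

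**Figure D4:**
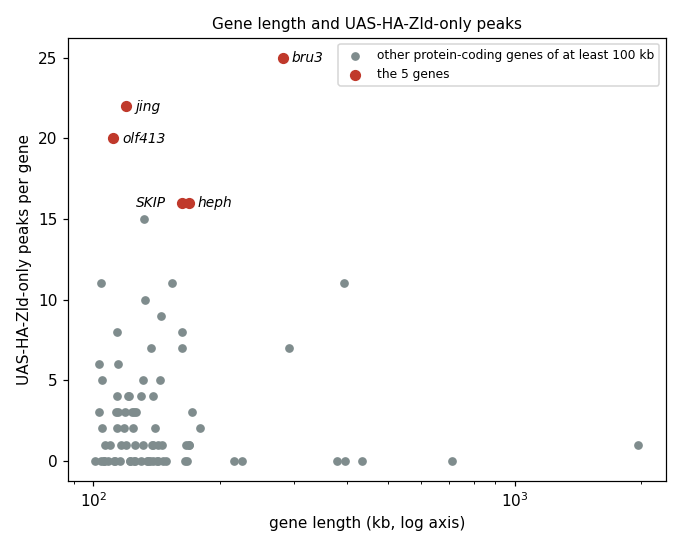
UAS-HA-Zld-only peaks per gene against gene length in kb (log axis) for the protein-coding genes of at least 100 kb, the 5 genes in red. The 5 have 16 to 25 peaks, and the other 78 have 0 to 15.

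Of 38 other genes in 4 lists of functional relatives, 11 (28.9%) had at least 1 peak unmatched in the UAS-HA-Zld list, against 15.4% of all protein-coding genes, and 9 (23.7%) in the brat list, against 14.9%. Among 13 other Bruno/CELF and neural RNA-binding protein genes, 6 had at least 1 and 6 had a brat-only peak. The muscleblind splicing factor gene mbl had 8 and Imp, which encodes a temporal regulator of neuroblasts, had 7. Of the closest relatives of bru3, bru1 had no UAS-HA-Zld peak and 1 brat-only peak, and bru2 had no peak in either list. Among 7 other genes of Polycomb repressive complex 2, with which AEBP2 associates in vertebrates, Su(z)12 alone had a UAS-HA-Zld-only peak. None of 8 other monoamine genes, Tbh included, had one. Among 10 other potassium channel genes 4 had one, and Shal, the channel for which SKIP is named, had 2. The lists were chosen with earlier results of these data known, and the counts are not scaled to gene length.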

How the data were processed

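Anti-Zld CUT&RUN peaks from larval brains were analysed, with 1 deposited list per condition of 2 replicates. Reads were processed on build dm6 with tools that include Bowtie2, MACS2 and deepTools (version 3.5.1), per the submitters' processing notes. How replicates were pooled, which control was used and what was filtered is not given in the sources read. In the deposited lists are the authors' integer score, the fold enrichment (a ratio) at the summit, the −log10 p and −log10 q, and the summit position. Depth per sample is not given in the files.

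From these, pileup and local background were solved under the Poisson model of MACS2, and every pileup came out whole (relative tolerance 0.0001). The solver was tested on simulated data. A peak was 1 distinct interval, located by its summit with the highest −log10 q. Genes came from a RefSeq table of the same assembly. Named peaks were, per gene, the 3 UAS-HA-Zld-only and 2 matched peaks with the highest −log10 q and every brat-only peak. Matched peaks were ranked by their value in the UAS-HA-Zld list, a choice that favours peaks high in that list. Python 3.11.15, pandas 2.3.3 and scipy 1.17.1 were used.

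The genes and lists were chosen with earlier results of these data known. The comparison of pileups at matched peaks was added after the data were seen. It was first made with the brat peak sharing the most bases. After those ratios had been seen, the pairing was changed to the nearest brat summit within 100 bp, because some partners had their strongest summit elsewhere. Results of both pairings are given. A planned count of Zld motifs was not run, as no genome sequence was used here.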

Additional observations from a re-analysis of the deposited data

How the results depend on the processing

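No paired analysis was possible because there was 1 list per condition. The total of 99 unmatched UAS-HA-Zld peaks stayed within 1.5 times under 10 of 12 alternatives. Among these 10 it was 98 scaled to equal background, 72 with equal list lengths and 67 with each absent number taken as 1 match. Scaling left the 67 matched peaks as they were. With no flank or with flanks of 5 kb the total stayed at 99, so the tally of alternatives includes settings that did not move it. The total became 159 with each summit counted (168 matched) and 28 with peaks beside absent numbers left out. The 5 unmatched brat peaks became 11 with equal list lengths, 20 with summits required within 200 bp, 3 with edges within 500 bp, 0 without peaks beside absent numbers and 1 with each absent number taken as 1 match, an alternative chosen after seeing the data. The 5 UAS-HA-Zld-only peaks near a gene end became 8 at 1 kb and 16 at 2 kb. By gene, equal list lengths took the UAS-HA-Zld-only peaks from 16 to 10 at SKIP and from 16 to 9 at heph, where brat-only peaks went from 4 to 7, and a −log10 q of at least 10 left 10 at heph. Without peaks beside absent numbers 4 were left at bru3, 10 at jing, 9 at olf413, 1 at SKIP (6.67% of its peaks) and 4 at heph. Each summit counted gave 43 at bru3 and 44 at jing. The causes were not tested.

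The 3 pairings of pileups were chosen after seeing the data. Summits within 100 bp gave 49.1% of pairs at a ratio of at least 2, most shared bases 44.8%, and the nearest summit at any distance 49.3%, with median ratios of 1.87, 1.79 and 1.99. The pairing mattered for single genes and peaks: by most shared bases the median fell to 1.29 at SKIP and 1.31 at heph, no higher than the 1.31 of all matched peaks under that pairing, and the highest ratio at SKIP was 13.12 in place of 8.41.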
